A study of Mus musculus with 4 samples.

Results

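Low-stress villus fibroblasts are the villus fibroblasts of the mouse small intestine that carried the least RNA of early stress genes. Cells were sorted as live PDPN+ (gp38+) cells lacking EpCAM, CD45 and CD31, from wild type male C57Bl/6 mice aged 8 weeks by the labels, after Liberase TL digestion at 37 °C, and were profiled by droplet single-cell RNA sequencing (10X, 2 libraries) or on plates (Smartseq2, 2 plates). All groups below share this genotype, age and digestion, and none was treated. A villus cell held at least 1 UMI (a counted RNA molecule) of Lpl or Fgfr2, none of Sox6 or Grem1, and fewer than 2 genes from each of 3 lists that mark other fibroblast classes (Inmt, Penk, Vit and Scara5; Chodl, Dner, Thbs2 and Ptn; Mmp10, Cxcl9, Cxcl5, Saa3, Sertm1 and P2rx1). In each library the villus cells were ranked by a stress score, the mean natural log value of Fos, Egr1, Junb, Hspa1a, Hspa1b and Ier3, divided into 3 groups of equal size by that rank, and the low group was kept. This gave 1346 cells of the 16891 10X cells (7.97%) and of the 17630 cells in all. Library 1 gave 191 members of its 2547 cells, and library 2 gave 1155 of 14344. The reference group was crypt cells, which held Grem1 and no Sox6, 1306 and 5786 cells in the 2 libraries. Of these, 779 (59.7%) and 3843 (66.4%) also held Lpl or Fgfr2. The 3 lists were not applied to crypt cells, of which 719 and 3498 would have met them. The rule found no villus cell among the 739 plate cells, whose values had been altered by integration, and these are not used here.

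Fibroblasts of the villus lie under the absorbing epithelium, where they secrete matrix and BMP ligands, handle retinoids and support capillaries, whereas Grem1-expressing fibroblasts around the crypt secrete BMP antagonists and R-spondins that maintain stem cells. Immediate-early genes such as Fos, Egr1 and Junb are transcribed within minutes of a stimulus, and heat shock genes such as Hspa1a encode chaperones induced by misfolded protein. Both classes are known to be induced in tissue cells by warm enzymatic digestion.

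Library is the unit of replication throughout. The number of mice in each library is not stated, so p-values rest only on spread between 2 libraries, which may be technical. A gene's own spread has 1 residual degree of freedom. The test (limma) weighed it with a prior of 5.78 degrees of freedom from the trend over all genes. Most of the spread behind a p-value thus comes from other genes, and a p-value can be small where the gene's own SD is large. A level is the mean over the cells of a group of UMIs per 10,000 UMIs of the cell. The median depth of the members was 6061 UMIs in library 1 and 5068 in library 2, lower than in the high group (8906 and 5982) and in crypt cells (9121.5 and 7295.5), and alternatives at equal depth are given below. The genes read here held 18.9% and 19.3% of the members' UMIs and none was mitochondrial, so mitochondrial RNA was not available as a sign of cell quality. The 2 libraries shared 7 cell barcodes. Markers of immune, epithelial, endothelial and glial cells were near 0 in the members: the summed level of each list was at most 0.134 UMIs per 10,000 in either library, and Epcam, Krt8, Krt18, Krt19 and Vil1 were at 0 in library 1. In library 1, 1 member cell carried 98.8% of the Igha UMIs of the members, at 2136 Igha UMIs per 10,000, and the mean of this antibody gene was 11.7 in library 1 and 0.175 in library 2.

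The score separated a low group most clearly in library 1. There 53 of the 191 members had a score of 0, compared with 45 of 1155 in library 2, and the median score of the members was 0.214 and 0.643. The last member inside the limit scored 0.71 and the first cell outside 0.712 in library 1, and the corresponding scores were 1.216 and 1.217 in library 2. Neighbouring cells at the limit were thus alike: in library 1 the tenth cell inside scored 0.606 and the tenth outside 0.79, and in library 2 these were 1.21 and 1.23. The low group is a range of a continuous score, and the range reached higher in library 2.

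**Figure D1:**
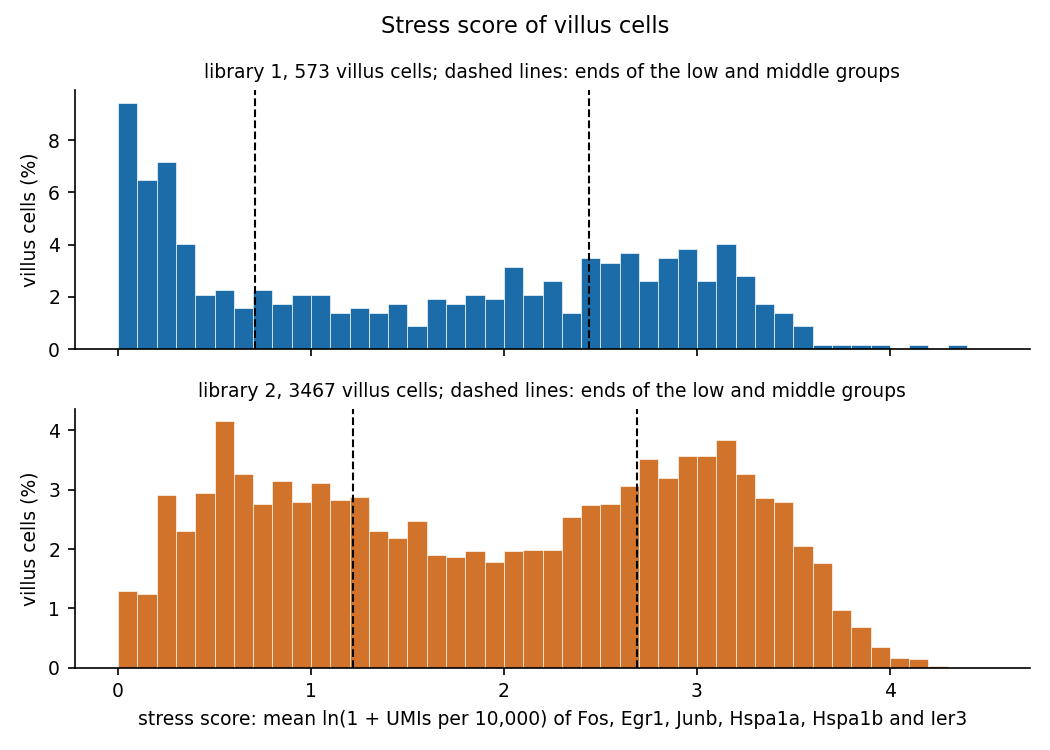
Share of villus cells (percent, vertical axis) by stress score (horizontal axis, mean natural log value of the 6 score genes) in library 1 (573 cells) and library 2 (3467 cells), with dashed lines at the ends of the low and middle groups. In library 1 the scores pile up near 0, and the low group ends at 0.71 there but at 1.216 in library 2.

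The 6 score genes chose the members, and their levels are given as a description. Fos, a subunit of the AP-1 transcription factor, was at 0.263 UMIs per 10,000 in library 1 and 1.44 in library 2 in the members, and at 34.9 and 34.6 in the high group. Egr1, a zinc finger factor, was at 1.09 and 3.97 in the members and at 63.1 and 76.7 in the high group. Junb, another AP-1 subunit, rose from 1.41 and 3.85 to 48.9 and 51.1, and Ier3, an early response gene, from 0.161 and 0.261 to 5.83 and 6.92. For the chaperone genes Hspa1a and Hspa1b the members were at 0.218 and 1.16, and 0.219 and 0.931, against 23.5 and 28.6, and 12.4 and 26.2, in the high group. These 2 genes are near-identical copies, so the division of reads between them is uncertain. In crypt cells, which were not ranked by the score, Fos was at 23.7 and 20.7 and Egr1 at 44.9 and 48.1, between the low and the high group.

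Stress genes that the score did not use followed it, as the ranking makes likely, and their calls are given as a description. In the contrast of the members with crypt cells, 19 of 21 further immediate-early genes and 8 of 9 further heat shock genes were called lower, beside 34.3% of all genes tested in that direction. Of the immediate-early genes, Egr2 and Egr3 reached 5% of cells in crypt cells alone, so the filter on low values set their direction. Zfp36, which destabilises cytokine mRNAs, was at 0.417 and 0.992 in the members and at 14.4 and 14.02 in the high group. Dusp1, a phosphatase that switches off MAP kinases, was at 0.62 and 1.14 against 9.5 and 11.5, and Btg2, an antiproliferative gene, at 0.641 and 1.07 against 14.3 and 15.5. Fosb was at 0.182 and 0.779 against 13.6 and 12.8. Among chaperones and their partners, Dnajb1 was at 0.32 and 0.387 against 2.69 and 4.34, Hsp90aa1 at 2.84 and 4.19 against 25.1 and 33.6, Dnaja1 at 1.11 and 1.63 against 5.1 and 5.58, and Bag3 at 0.54 and 0.588 against 1.29 and 1.27. Against the lowest-scoring crypt cells (435 and 1928 cells, ranked and divided into 3 in the same way), 18 of 20 immediate-early genes and 4 of 9 heat shock genes were called lower, beside 28.9% of the 1490 genes tested in that contrast. The differences of the mean natural log values were smaller there, at -0.55 rather than -1.74 for Zfp36, -0.57 rather than -1.50 for Dusp1, -0.54 rather than -1.57 for Btg2, -0.43 rather than -1.65 for Fosb, -0.17 rather than -0.79 for Dnajb1, -0.44 rather than -1.22 for Hsp90aa1, -0.34 rather than -0.70 for Dnaja1 and -0.14 rather than -0.36 for Bag3.

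The 250 bases before the start of 4 stress genes are shown (RefSeq, GRCm38.p6, minus strand of the chromosome, 5′ to 3′). Hspa1a and Hspa1b are genes of the score, so the rule set their movement across the villus cells. Dusp1 and Btg2 were not used by the score. The capitals in the first pair mark GAANNTTC, 2 inverted units of the heat shock element, and those in the second pair mark TGACGTCA, the cyclic AMP response element, both of which read the same on either strand. The windows are chr17:34972157-34972406 for Hspa1a, chr17:34959239-34959488 for Hspa1b, chr17:26508473-26508722 for Dusp1 and chr1:134079156-134079405 for Btg2.
Hspa1a: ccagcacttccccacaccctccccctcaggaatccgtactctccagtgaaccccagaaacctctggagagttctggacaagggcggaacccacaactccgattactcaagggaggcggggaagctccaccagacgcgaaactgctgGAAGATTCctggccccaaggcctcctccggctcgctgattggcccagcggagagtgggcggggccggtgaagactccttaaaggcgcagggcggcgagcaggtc
Hspa1b: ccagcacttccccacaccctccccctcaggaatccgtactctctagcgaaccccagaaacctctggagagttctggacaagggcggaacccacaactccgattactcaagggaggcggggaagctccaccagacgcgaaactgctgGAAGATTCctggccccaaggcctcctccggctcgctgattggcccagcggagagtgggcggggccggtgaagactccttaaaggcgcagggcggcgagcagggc
Dusp1: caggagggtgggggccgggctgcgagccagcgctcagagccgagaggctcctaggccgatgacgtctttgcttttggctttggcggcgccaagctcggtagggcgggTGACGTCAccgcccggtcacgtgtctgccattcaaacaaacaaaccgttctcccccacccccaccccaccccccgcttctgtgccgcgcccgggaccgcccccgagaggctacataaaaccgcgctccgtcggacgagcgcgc
Btg2: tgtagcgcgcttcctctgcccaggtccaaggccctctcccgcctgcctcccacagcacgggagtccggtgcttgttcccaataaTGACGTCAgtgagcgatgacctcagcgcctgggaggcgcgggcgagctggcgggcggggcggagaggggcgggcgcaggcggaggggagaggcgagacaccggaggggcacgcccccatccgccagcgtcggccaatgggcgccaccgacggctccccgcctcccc
The Hspa1a and Hspa1b windows were equal at 247 of 250 bases (98.8%). GAANNTTC was found in 6.69% of all 32851 promoter windows of this length, in 4 of 7 matched heat shock genes outside the score (Hspb1, Hspd1, Hspe1 and Dnaja1) and in 2 of 18 immediate-early genes (Fosl2 and Jun). TGACGTCA was found in 1.55% of all windows, in 3 of 18 immediate-early genes (Dusp1, Btg2 and Ppp1r15a) and in 0 of 7 heat shock genes. A match describes the sequence and is not evidence that a factor binds there.

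The label was checked against its 6 marker genes, and 4 of the 6 were higher in the members than in crypt cells, where 19.9% of the 1497 genes tested were higher. Adamdec1, a secreted metalloprotease of gut stroma (chr14:68563380-68582095), was at 125 and 152 UMIs per 10,000 in the members and at 32.1 and 44.2 in crypt cells. The difference of the mean natural log values was 2.51 ± 0.48 (SD, n = 2 libraries; limma adjusted p = 7.17e-05), the largest of all genes tested. Igfbp5, which binds insulin-like growth factors (chr1:72857932-72874884), was at 15.5 and 19.3 against 7.5 and 9.75, a difference of 0.88 ± 0.015 (adjusted p = 0.000205). Both genes were higher in each library. Ddah1, an enzyme that degrades an inhibitor of nitric oxide synthesis (chr3:145758675-145894277), was at 0.427 and 0.549 against 0.19 and 0.243 (adjusted p = 0.00376), and Adamtsl2, a microfibril-associated protein (chr2:27079379-27108981), at 1.52 and 1.35 against 0.653 and 0.856 (adjusted p = 0.00656). The Ddah1 call was lost against the lowest-scoring crypt cells (difference 0.06 rather than 0.12, adjusted p = 0.0957) and against crypt cells held to the 3 exclusion lists (adjusted p = 0.0531). The Adamtsl2 call was lost without the mean trend in the fit (adjusted p = 0.0657).

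The other 2 markers did not mark the members. Sfrp1, a secreted Wnt antagonist (chr8:23411502-23449632), was at 21.7 and 23.6 in the members and at 17.02 and 21.6 in crypt cells, and the difference of 0.08 ± 0.22 on the natural log scale had opposite signs in the 2 libraries (adjusted p = 0.584). Adgrg2, an adhesion receptor (chrX:160390690-160498070), was at 0.242 and 0.707 against 0.264 and 0.493, again with opposite signs (0.02 ± 0.057, adjusted p = 0.6). With all villus cells in place of the members both passed the test, Sfrp1 with a difference of 0.28 (adjusted p = 0.0199) and Adgrg2 with 0.10 (adjusted p = 0.0102). So 4 of the 6 markers set the members apart from crypt cells. Against the lowest-scoring crypt cells 3 of 6 were higher, beside 13.6% of all genes in that contrast. The markers bear on villus against crypt cells. Between the low and the high group of villus cells, 1 of the 6 was at least 1.5-fold higher in the low group in both libraries. That lies near the 13.3% of all genes and is no finding on low stress.

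**Figure D2:**
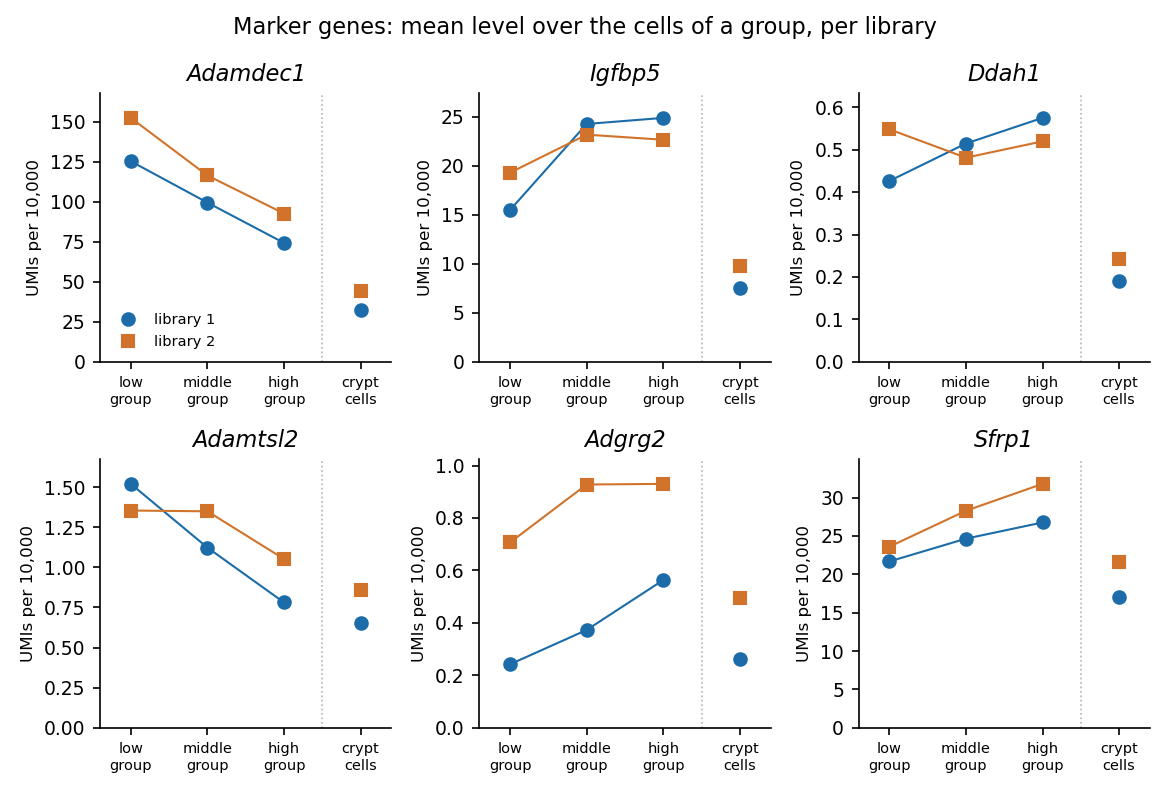
Mean level (UMIs per 10,000, vertical axes from 0) of the 6 marker genes in the low, middle and high group of villus cells and in crypt cells, with 1 point for each library. Adamdec1 falls from 125 and 152 in the low group to 74.3 and 92.7 in the high group, while Igfbp5, Adgrg2 and Sfrp1 are lowest in the low group among the villus cells.

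At equal depth Adamdec1 and Igfbp5 separated the groups and Sfrp1 did not. When each cell was thinned to 2000 UMIs, which left out 6 and 58 members, Adamdec1 was found in 185 of 185 and 1077 of 1097 members (100% and 98.2%, exact 95% intervals 98.0 to 100% and 97.2 to 98.9%), and in 45.6% and 70.4% of crypt cells. Without thinning the shares were 100% and 99.1% of members and 62.6% and 90.6% of crypt cells. Cells with immune markers in library 2, of median depth 4768.5 UMIs, served as a background. No doublet caller was run, so whether their fibroblast UMIs come from free RNA or from doublets was not tested. Of these cells 21 of 52 (40.4%, exact 95% interval 27.0 to 54.9%) held an Adamdec1 UMI at the same thinned depth. The 45.6% of crypt cells of library 1 lies inside that interval. Library 1 held 1 immune-marker cell at that depth, so its own background was not measured, and the readings below set both libraries against library 2. Igfbp5 was found in 55.1% and 68.5% of members (intervals 47.7 to 62.4% and 65.7 to 71.3%, 71.7% and 75.7% unthinned), 33.0% and 40.6% of crypt cells and 7.69% of the immune-marker cells, and Lrat in 62.2% and 50.1% of members (54.8 to 69.2% and 47.1 to 53.1%, 80.1% and 69.4% unthinned), 20% and 21.0% of crypt cells and 3.85% of the immune-marker cells. Sfrp1 was found in 95.7% and 88.8% of members (97.9% and 93.2% unthinned) and in 89.0% and 92.8% of crypt cells (98.2% and 98.4% unthinned), so the order differed between the libraries. The crypt marker Prss23 was found in 18.9% and 20.8% of members (37.2% and 40.1% unthinned) and 74.6% and 70.1% of crypt cells. The members' shares lie below the 25% of immune-marker cells of library 2 (exact 95% interval 14.03 to 38.95%) and are not told apart from that background. These intervals cover counting error only.

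Across genes, 811 of 1497 genes tested (54.2%) differed between the members and crypt cells (limma with the library as block, Benjamini-Hochberg adjusted p under 0.05), 298 higher and 513 lower, and all 811 had 1 sign in both libraries. Of the genes tested, 1215 were found in at least 5% of the cells of both groups, and of these 20.1% were higher and 30% lower. The other genes reached that limit in the members alone (71, of which 54 were higher) or in crypt cells alone (211, of which 149 were lower). The filter set the direction of these calls, so they are no finding on the genes, and named genes of this kind are marked below as having passed through 1 group alone. At 2000 UMIs per cell, with the groups drawn again from the thinned cells, 317 genes were higher and 346 lower of 981 tested, so that 47.8% of the calls were higher rather than 36.7%. Depth, the cells of each group and the genes tested changed together there, and their parts in that shift cannot be told apart. Of the calls at full depth, 569 were made with the same sign in the thinned cells, in which fewer genes could be tested. The members were chosen for low stress and the crypt cells were not. Against the lowest-scoring crypt cells, 13.6% of 1490 genes were higher and 28.9% lower. Of the 90 called genes named by rule that could be tested there, none changed sign, and 49 had a difference over 1.5 times smaller. Those smaller by over 2 times are given with their lists. The others included Igfbp5, Adamtsl2, Aldh1a3, Kcnk2, P2ry1, Calcrl, Cspg4, Tagln and Pappa among the higher genes and Ackr4, Prss23, Col14a1, Col8a1, Col1a2, Mfap5, Sparc, Ebf1, Vegfd, Vldlr, Gdf6, Rspo3, Pi16 and Ly6c1 among the lower genes.

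**Figure D3:**
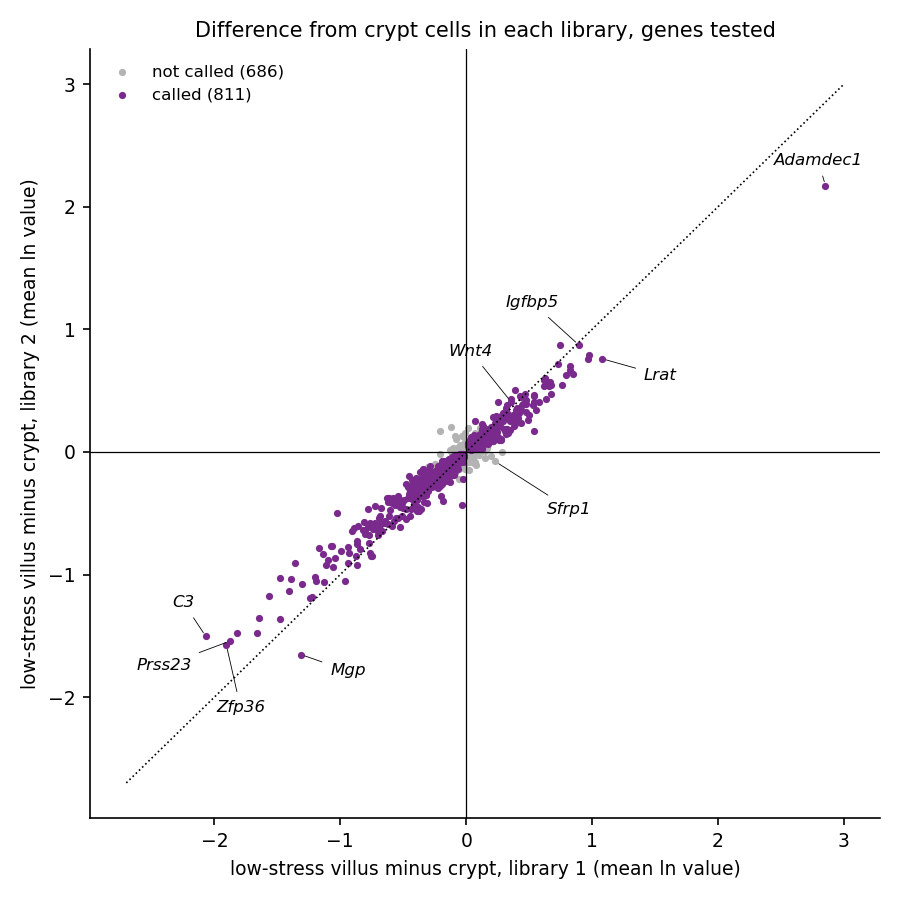
Difference of the mean natural log value between low-stress villus cells and crypt cells in library 1 (horizontal axis) and library 2 (vertical axis) for the 1497 genes tested, with called genes in purple, other genes in grey and the line of equal differences dotted. The 811 called genes lie in the quadrants of equal sign, and Adamdec1 lies farthest from 0.

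The 8 genes with the largest excess in the members were Adamdec1, Lrat, Igfbp5, Igfbp3, Fn1, Aldh1a3, Tnc and Hmcn1, each higher in both libraries. Lrat, which esterifies retinol for storage (chr3:82892579-82903973), was at 7.02 and 5.31 in the members and at 1.68 and 1.66 in crypt cells (difference 0.92 ± 0.23 on the natural log scale, adjusted p = 0.000226). Igfbp3, a carrier of insulin-like growth factors (chr11:7206086-7213923), was at 7.13 and 7.48 against 1.36 and 1.85 (0.88 ± 0.13, adjusted p = 0.000115). Fn1, fibronectin (chr1:71585520-71653200), was at 17.4 and 20.7 against 7.52 and 10.4, Tnc, tenascin C (chr4:63959785-64047015), at 5.23 and 6.33 against 2.38 and 3.35, and Hmcn1, a large basement membrane protein (chr1:150562524-150993435), at 3.51 and 3.4 against 0.913 and 1.07. These 8 genes were picked for the size of their difference, and single cells of the 2 groups were not separated. Igfbp3, for example, was found without thinning in 67.0% and 59.9% of members and in 27.7% and 31.4% of crypt cells. Against the lowest-scoring crypt cells the difference for Tnc was 0.34 rather than 0.76.

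Genes of retinoid handling were higher in 4 and lower in 2 of 8 tested, beside 19.9% higher and 34.3% lower of all genes. Beside Lrat, the retinol dehydrogenase Rdh10 was at 1.77 and 2.03 in the members and at 0.51 and 0.641 in crypt cells. Aldh1a3, a retinaldehyde dehydrogenase that makes retinoic acid (chr7:66390890-66427517), was at 3.58 and 6.13 against 1.13 and 2.08. The fourth, Aldh1a2, is another retinaldehyde dehydrogenase. Dhrs3, which reduces retinaldehyde, was among the lower genes. The same counts, 4 higher and 2 lower of 8, were found against the lowest-scoring crypt cells. In lipid handling, 1 gene was higher and 6 were lower of 13, against the same shares of all genes: Ptgs1, a prostaglandin synthase, was at 1.17 and 1.22 against 0.251 and 0.334, while Apoe was at 4.91 and 5.12 against 8.7 and 9.41, Hpgd, which inactivates prostaglandins, at 0.377 and 0.501 against 1.18 and 1.02, and Vldlr, a lipoprotein receptor, at 0.445 and 0.339 against 1.23 and 1.17.

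Among insulin-like growth factor genes 3 were higher and 1 was lower of 5, beside 19.9% higher and 34.3% lower of all genes. Pappa, a protease that cleaves binding proteins of these factors, was at 1.33 and 0.838 against 0.64 and 0.508 and lost its call in 3 alternatives (adjusted p up to 0.0948). Igfbp6 was at 1.35 and 1.36 against 3.01 and 2.29 and was lower. The 3 binding proteins thus differed in direction, with Igfbp3 and Igfbp5 higher and Igfbp6 lower. Of 16 growth factors and receptors tested, 7 were higher, with Nrg1 having passed through the members alone, and 3 lower. Lrrc32, which presents latent TGF-β, was at 3.6 and 2.27 against 1.56 and 1.1, and Ereg, an EGF receptor ligand, at 1.54 and 3.23 against 1.02 and 1.89. The Ereg call was lost with no replicate block (adjusted p = 0.0766). The lower genes were Vegfd, at 0.0856 and 0.161 against 0.826 and 0.869, Tgfb3, at 0.434 and 0.447 against 1.15 and 0.961, and the alarmin Il33. Hgf, Nrg1, Fgf10, Vegfa and Kitl made up the rest of the higher genes. Against the lowest-scoring crypt cells 5 of the 16 were higher and 5 lower, beside 13.6% and 28.9% of all genes.

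BMP and Wnt genes were sparse. Of the 15 that passed, 11 were lower in the members, beside 63.3% of the calls over all genes, and so the share lay near that of all genes. Of these 15, 7 reached 5% in both groups, 3 of them higher and 4 lower. Of 11 BMP ligands and antagonists tested, 4 reached 5% in both groups, of which Bmp5 was higher and the antagonist Chrd lower. Bmp5 was at 1.5 and 2.24 in the members and at 0.353 and 0.488 in crypt cells (difference 0.47 ± 0.004, limma adjusted p = 0.000116). The ligand gene Gdf6, at 0.0363 and 0.0336 against 0.453 and 0.499, and the antagonist Chrdl1, at 0 and 0.0334 against 0.259 and 0.237, passed through crypt cells alone, as did the antagonist Fst and the ligand gene Gdf10. The ligand gene Bmp7 passed through the members alone. Crypt cells were chosen on the related antagonist Grem1, and the part of that choice in these differences was not tested. Of 7 Wnt ligands and receptors, the ligand Wnt4 was the 1 higher gene, at 1.14 and 1.51 against 0.0491 and 0.145 (adjusted p = 0.000125), and the receptor Fzd4, at 0.282 and 0.271 against 0.803 and 0.658, was lower. At 2000 UMIs Wnt4 was found in 12.4% and 18.2% of members (24.1% and 29.2% unthinned) and in 1.08% and 2.18% of crypt cells. It was held by 2 of 52 immune-marker cells of library 2 (3.85%, exact interval 0.47 to 13.2%). The crypt shares lie inside that interval and are not told apart from that background, so no fold is given. The 12.4% of members in library 1 lies inside it as well, while the 18.2% in library 2 lies above it. Fzd5 passed through crypt cells alone. Of 5 R-spondins and Wnt antagonists, Dkk2, at 1.04 and 1.3 against 2.29 and 2.63, and Rspo3, at 0.505 and 0.443 against 0.71 and 0.817, were lower, and the antagonist Frzb, at 0.693 and 0.733 against 0.315 and 0.331, was higher. Rspo1, at 0.0478 and 0.0679 against 0.228 and 0.178, passed through crypt cells alone. The Frzb call was lost against the lowest-scoring crypt cells (difference 0.07 rather than 0.17, adjusted p = 0.0734) and the Rspo3 call against those of them free of Lpl and Fgfr2 (adjusted p = 0.0677).

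Every list of matrix genes held genes of both directions, as did all genes tested, of which 19.9% were higher and 34.3% lower. Of 10 fibrillar and associated collagens, 3 were higher, with Col6a4 having passed through the members alone, and 5 lower. Col6a5, a chain of beaded-filament collagen, was at 2.58 and 3.07 against 0.601 and 1.2, while Col1a2, a chain of type I collagen, was at 42.3 and 36.2 against 79.5 and 57.1 and Col8a1 at 0.732 and 0.415 against 4.76 and 2.74. Of 10 basement membrane genes 5 were higher, among them Npnt, which passed through the members alone, Col18a1, at 3.53 and 2.63 against 1.47 and 1.43, and the laminin chain Lamb1, at 6.74 and 5.81 against 3.87 and 3.87, and 4 were lower, among them Sparc, at 48.9 and 38.9 against 75.7 and 50.0. The Lamb1 call was lost with no filter on low values (adjusted p = 0.0631) and, like that of Sparc, with no replicate block (adjusted p = 0.052 and 0.173). Of 16 elastic fibre genes 6 were higher and 8 lower, of which Emilin2 passed through crypt cells alone. Fbln5, which assembles elastic fibres, was at 3.65 and 4.02 against 1.21 and 1.57, and Efemp1 at 6.18 and 6.52 against 3.38 and 3.81. Fbln1 was at 9.38 and 11.4 against 30.4 and 32.6 (difference -1.42 ± 0.082, adjusted p = 8.59e-05) and Mfap5 at 1.23 and 1.36 against 2.9 and 2.13. Of 14 proteases and inhibitors that reached 5% in both groups 3 were higher and 6 lower, the latter including Adamts4, at 0.613 and 0.531 against 5.5 and 4.42, Adamts1, at 1.06 and 1.41 against 4.03 and 4.11, and the plasminogen activator Plat, at 0.357 and 0.586 against 1.52 and 1.61. Adamts1 and Adamts4 also followed the stress score, at 4.51 and 3.67, and 5.83 and 4.56, in the high group, and against the lowest-scoring crypt cells their differences were -0.20 rather than -0.68 and -0.26 rather than -0.81.

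The 12 crypt fibroblast genes were all lower in the members, of which 10 reached 5% in both groups and Ackr4 and Piezo2 passed through crypt cells alone. Prss23, a serine protease, was at 1.22 and 1.56 in the members and at 17.8 and 13.4 in crypt cells (difference -1.71 ± 0.24, adjusted p = 7.17e-05). Ackr4, which scavenges chemokines, was at 0.0809 and 0.118 against 2.81 and 2.6. At 2000 UMIs it was found in 2.16% and 2.28% of members (4.19% and 5.02% unthinned) and 35.9% and 33.2% of crypt cells. Ackr4 was held by 2 of 52 immune-marker cells of library 2 (3.85%, exact interval 0.47 to 13.2%). The members' shares lie inside that interval and are not told apart from that background, so no fold is given. C3, the central complement component, was at 6.08 and 10.1 against 35.3 and 35.4, Cilp at 0.334 and 0.355 against 6.46 and 3.84, and Col14a1 at 4.36 and 5.42 against 15.4 and 15.8. The other 7 (Piezo2, Svep1, Stc2, Olfml2b, Pcolce2, Col8a1 and Postn) were lower as well, and all 12 remained lower against the lowest-scoring crypt cells. Of 9 complement genes 7 reached 5% in both groups, and all 7 were lower, including C4b, at 15.8 and 15.2 against 25.4 and 23.6, and C7, at 0.218 and 0.384 against 0.84 and 1.18, while C6 passed through the members and Clu through crypt cells alone. Of all genes that reached 5% in both groups 30% were lower. Among genes in none of the gene lists, the largest deficits were those of Mgp, an inhibitor of calcification, at 17.96 and 14.9 against 39.5 and 50.4, the metallothionein gene Mt1, at 1.77 and 1.19 against 19.4 and 10.4, and Aebp1, a collagen-binding protein, at 2.53 and 1.99 against 10.2 and 8.66. Mt1 also followed the stress score, at 13.6 and 5.44 in the high group, and its difference was -0.44 against the lowest-scoring crypt cells rather than -1.25.

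**Figure D4:**
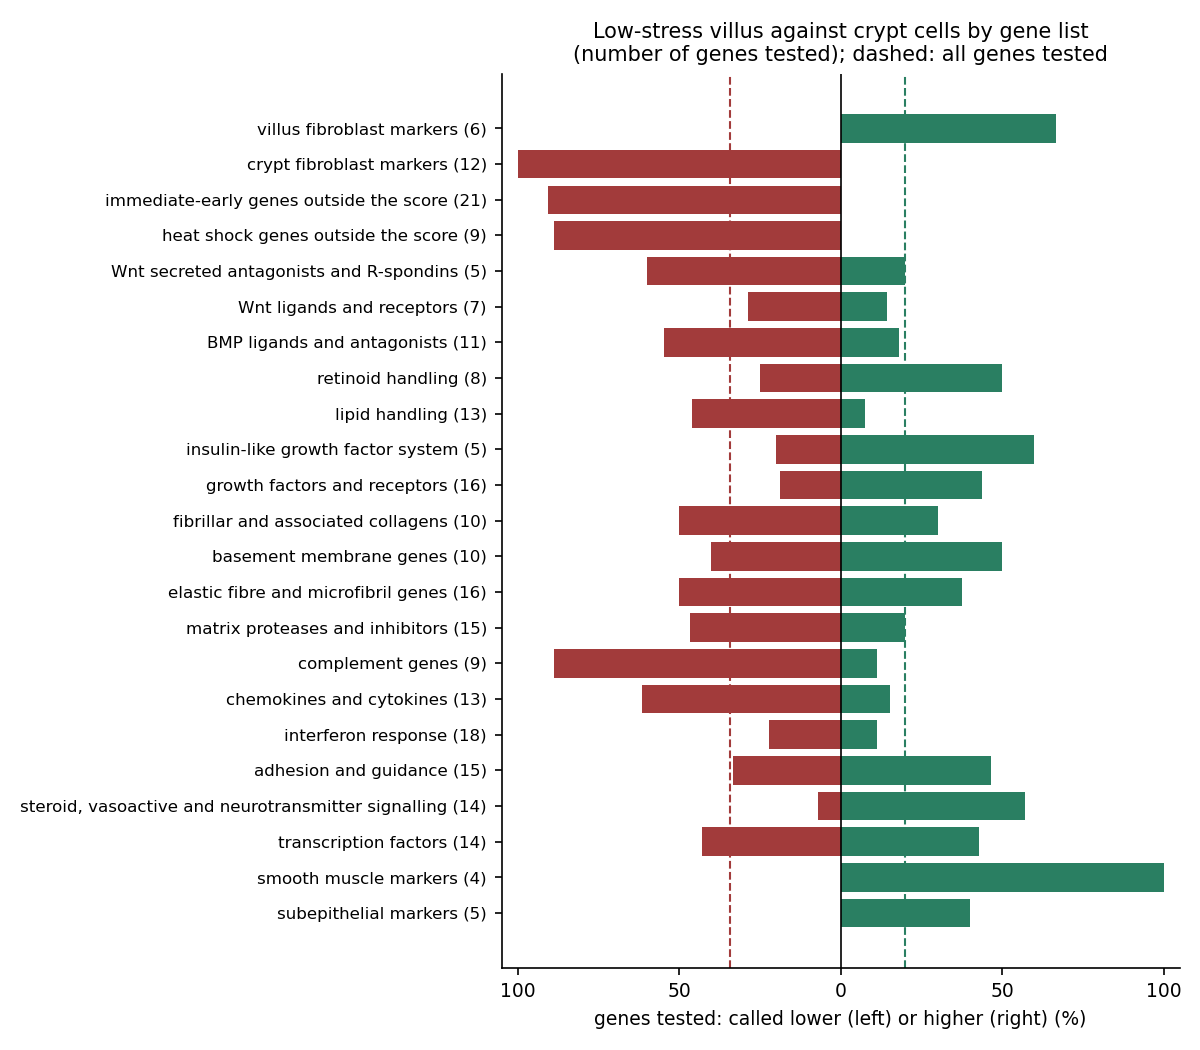
Percent of the genes tested in each list (number in parentheses) that were called higher (right, green) or lower (left, red) in low-stress villus cells than in crypt cells, with dashed lines at the shares of all genes tested. Crypt fibroblast markers are lower in 12 of 12 and smooth muscle markers higher in 4 of 4, beside 34.3% and 19.9% of all genes.

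For the genes of signalling to and from other cells, the shares of all genes were again 19.9% higher and 34.3% lower. Of 14 genes of steroid, vasoactive and neurotransmitter signalling, 12 reached 5% in both groups, of which 7 were higher and none lower, beside 20.1% and 30% of all such genes. Ednrb passed through the members and Ace through crypt cells alone. Kcnk2, a potassium channel, was at 3.48 and 3.59 against 1.25 and 1.82, Calcrl, a receptor for calcitonin gene-related peptide, at 2.12 and 2.27 against 1.06 and 1.27, and P2ry1, a purine receptor, at 1.16 and 1.05 against 0.454 and 0.532. Rgs5 was at 19.7 and 23.4 against 13.6 and 17.1, but the difference of 0.39 was 0.01 against the lowest-scoring crypt cells (adjusted p = 0.956). Of 15 adhesion and guidance genes, 7 were higher and 5 lower, with Slit2 having passed through crypt cells alone, Icam1, an adhesion molecule for leukocytes, at 1.08 and 1.6 against 5.59 and 5.47 and Slit3 at 1.65 and 2.36 against 3.92 and 4.49. The Icam1 difference was -0.38 against the lowest-scoring crypt cells rather than -0.95. Of 13 chemokines and cytokines, 2 were higher (Ccl11 and Cxcl14) and 8 lower, of which 4 passed through crypt cells alone. Il6 was at 0 and 0.236 against 3.45 and 4.83, Ccl2 at 0.179 and 0.463 against 3.02 and 3.58, and Cxcl10 at 0.0605 and 0.242 against 1.44 and 2.56. These cytokine genes rose with the score, Il6 to 2.42 and 4.4 and Ccl2 to 3 and 4.36 in the high group. Against the lowest-scoring crypt cells the differences were -0.20 rather than -0.80 for Il6, -0.17 rather than -0.52 for Ccl2 and -0.09 rather than -0.41 for Cxcl10. Of 18 interferon response genes 2 were higher and 4 lower: Bst2 was at 4.91 and 4.51 against 3.04 and 2.93, Irf1 at 1.04 and 1.37 against 3.37 and 3.34, Iigp1 at 1.83 and 3.66 against 4.78 and 6.29, and Isg15 at 0.298 and 0.374 against 1.15 and 1.09. Against the lowest-scoring crypt cells 0 of 19 were higher and 6 lower, beside 13.6% and 28.9% of all genes. The Bst2 call was lost there (difference 0.14 rather than 0.35, adjusted p = 0.0931), and the differences were -0.10 rather than -0.60 for Irf1, -0.19 rather than -0.42 for Iigp1 and -0.13 rather than -0.28 for Isg15. The Iigp1 call was lost with all villus cells (-0.06, adjusted p = 0.316) and against the lowest-scoring crypt cells free of Lpl and Fgfr2 (-0.03, adjusted p = 0.801).

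Transcription factors were higher in 6 and lower in 6 of 14, beside 19.9% and 34.3% of all genes. Ebf1 was at 0.101 and 0.218 against 2.46 and 1.93, and Meis2 at 0.717 and 0.947 against 2.77 and 2.96. Hes1, a Notch target, was at 1.84 and 3.8 against 7.94 and 8.49, rose with the score to 10.4 and 13.3 in the high group, and did not pass when all villus cells were compared (adjusted p = 0.0751). Its difference was -0.33 against the lowest-scoring crypt cells rather than -0.92. The higher factors were Foxf2, Foxl1, Nr2f1, Msc, Hoxc8 and Tbx3. Foxl1 itself, at 0.11 and 0.127 against 0.00669 and 0.0122, passed through the members alone.

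Within the villus cells, 189 of 1425 genes (13.3%) were at least 1.5-fold higher in the low than in the high group in both libraries and 276 (19.4%) at least 1.5-fold lower. The rule made this contrast, so these are descriptions and no test was applied. Of the named villus genes, Lpl, the lipoprotein lipase that chose the cells, was at 9.91 and 10.8 in the low group, 4.61 and 7.17 in the middle group and 3.69 and 4.93 in the high group. Adamdec1 was at 125 and 152, 99.5 and 116, and 74.3 and 92.7. Lrat was at 7.02 and 5.31, 4.4 and 4.12, and 3.4 and 3.14. These genes stepped down with the score in both libraries. Wnt4 fell from 1.14 and 1.51 over 0.267 and 0.586 to 0.0882 and 0.24. Bmp5 went from 1.5 and 2.24 over 1.11 and 1.31 to 0.725 and 1.04. Igfbp3 went from 7.13 and 7.48 to 2.63 and 5.46 in the middle and 3.17 and 3.82 in the high group, and so did not step down between the last 2 in library 1. Igfbp5 went up, from 15.5 and 19.3 to 24.3 and 23.2 in the middle and 24.9 and 22.7 in the high group, as did Sfrp1, from 21.7 and 23.6 over 24.6 and 28.3 to 26.7 and 31.8.

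Crypt genes also followed the score: of the 12, 7 were at least 1.5-fold lower in the low than in the high group in both libraries, and none reached its crypt level in the high group. C3 went from 6.08 and 10.1 over 12.5 and 15.7 to 16.7 and 18.3, with crypt cells at 35.3 and 35.4. Outside the 12, the elastic fibre gene Fbln1 went from 9.38 and 11.4 over 18.1 and 19.0 to 21.2 and 23.04, with crypt cells at 30.4 and 32.6. The summed level of the 12 crypt genes was 20.2 and 27.2 in the low, 35.6 and 37.6 in the middle and 42.6 and 40.7 in the high group, and 109 and 100 in crypt cells. The summed level of the 6 villus markers was 165 and 198, 150 and 171, and 128 and 150, against 57.7 and 77.2. When the UMIs of each cell were split at random, with 1 part choosing the groups and the other giving the levels, Adamdec1 was at 128 and 147 in the low and 76.5 and 90.8 in the high group, Wnt4 at 1.18 and 2.14 against 0.208 and 0.345, and C3 at 6.87 and 9.37 against 17.7 and 18.3. With cells thinned to 2000 UMIs Adamdec1 was at 124 and 145 against 77.3 and 89.3, a gradient of similar size at equal depth. Wnt4 was then at 2.11 and 2.21 against 0.298 and 0.4345, and Igfbp3 at 6.86 and 6.66 against 3.37 and 4.69. The ratios of these 2 genes were smaller than at full depth in both libraries.

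**Figure D5:**
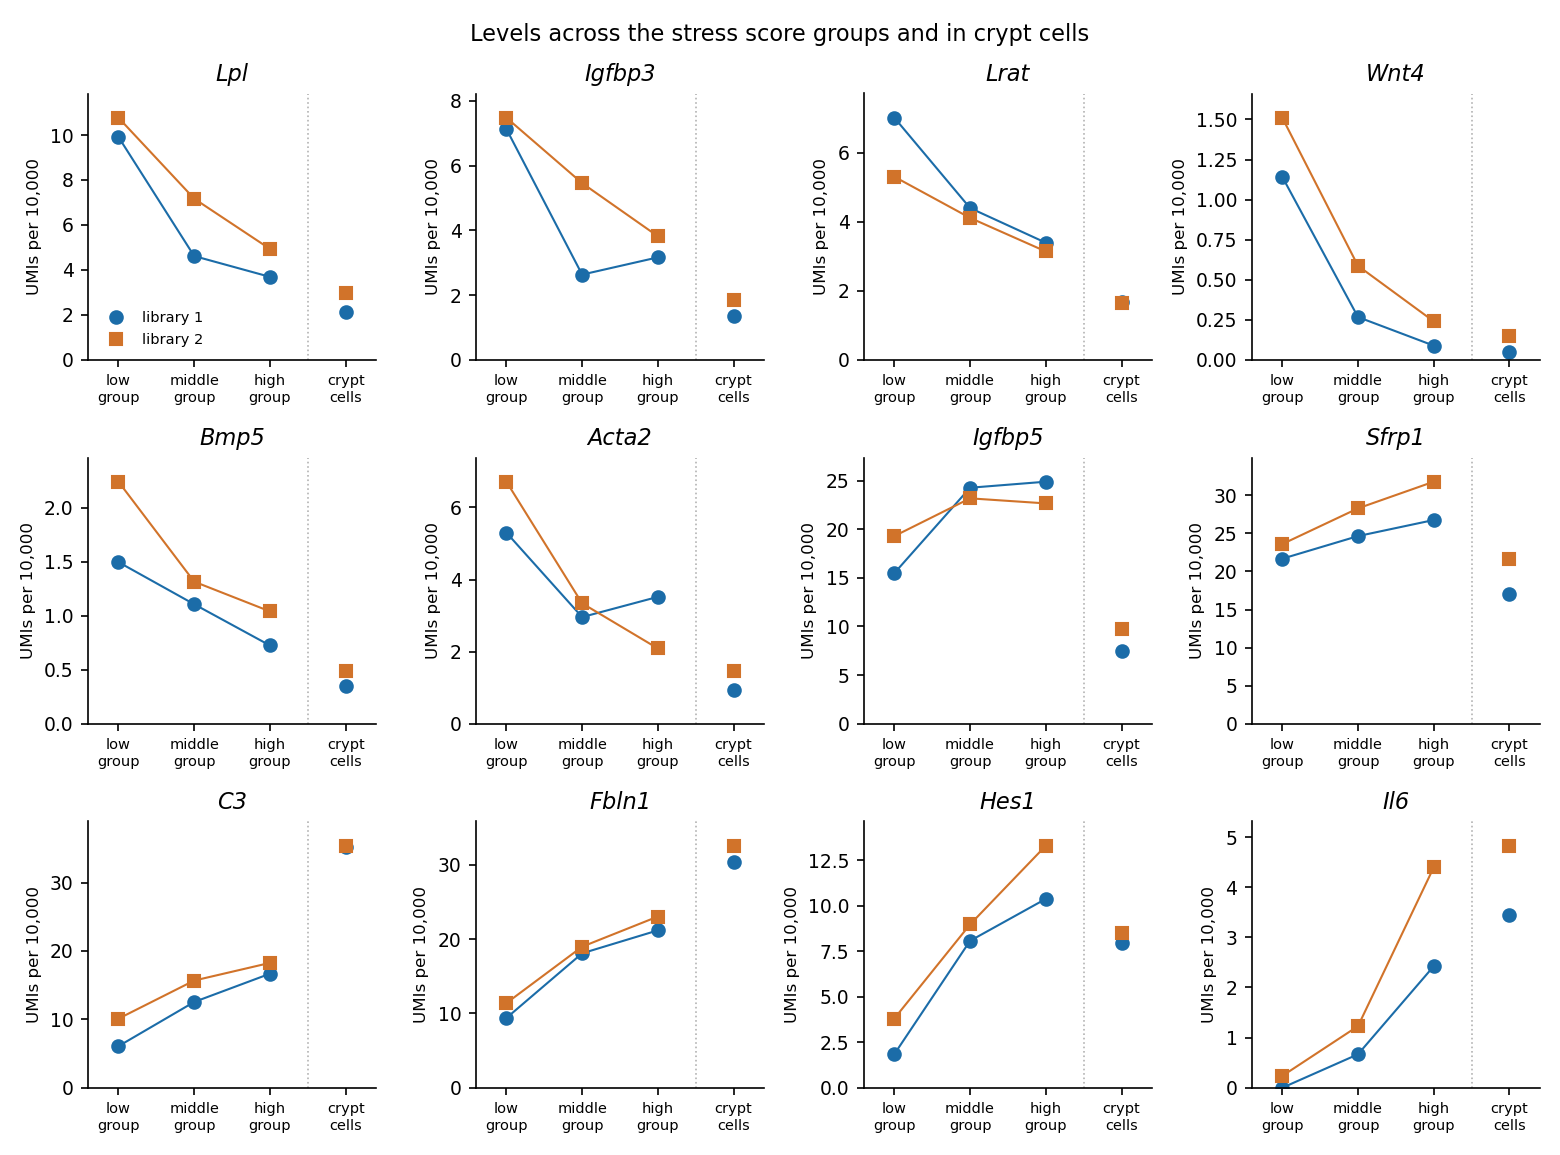
Mean level (UMIs per 10,000, vertical axes from 0) of 12 genes in the low, middle and high group of the stress score and in crypt cells, with 1 point for each library and lines joining the villus groups. Lpl, Lrat, Wnt4 and Bmp5 step down from the low to the high group in both libraries, and C3, Fbln1, Hes1 and Il6 step up.

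Several further genes, chosen after their values were seen, are examples of those at least 1.5-fold higher in the low than in the high group in both libraries, and other genes had a larger excess. Agt and Ednrb had passed the filter against crypt cells through the members alone. Agt, angiotensinogen, was at 1.66 and 1.09 in the low and 0.295 and 0.265 in the high group. Ednrb, an endothelin receptor, was at 0.446 and 1.51 against 0.0236 and 0.255. Cxcl14, a chemokine, was at 1.56 and 1.02 against 0.292 and 0.315, Adgrl3, an adhesion receptor, at 1.01 and 0.936 against 0.224 and 0.336, and Pdlim3 and Fhl2, proteins of the actin cytoskeleton, at 2.12 and 2.18 against 0.758 and 0.824 and at 3.01 and 2.67 against 1.04 and 1.19. Ptch1, the Hedgehog receptor and target, was at 5.48 and 4.28 in the low, 2.66 and 2.33 in the high group and 1.67 and 1.48 in crypt cells.

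Smooth muscle genes moved with the members. All 4 tested were higher than in crypt cells, beside 19.9% of all genes tested. Acta2 was at 5.3 and 6.71 against 0.944 and 1.46, and Tagln at 2.67 and 3.95 against 0.763 and 0.932. Myh11 was at 1.31 and 1.71 against 0.0731 and 0.265, and Des at 0.885 and 0.767 against 0.292 and 0.289. The summed level of the 6 smooth muscle markers over the members was 10.5 and 13.8, with cells ranging from 0 to 361 and 0 to 415, against 6.23 and 6.8 in the middle, 8.13 and 4.64 in the high group and 2.11 and 3.06 in crypt cells. At least 2 of the 6 were present in 38.7% and 36.7% of members and in 13.6% and 19.7% of crypt cells, none of the 6 was at 0, and the members with at least 2 were deeper (median 7820.5 and 6251.5 UMIs) than the others (5048 and 4422). Much of the Acta2 came from few cells: 12 and 77 members with at least 3 Myh11 UMIs held Acta2 at 42.0 and 55.4, which was 49.7% and 55.1% of its summed level over the members, while members with fewer than 2 smooth muscle markers held it at 0.927 and 0.987. When cells with at least 2 of these markers were left out and the 3 groups drawn again, the difference from crypt cells was 1.02 for Igfbp3, 0.91 for Lrat, 2.70 for Adamdec1 and 0.29 for Wnt4. It was 0.18 for Acta2 and 0.03 for Tagln (adjusted p = 0.286), which are among the markers that chose the cells left out, so that their fall was set by that choice. Without these cells Sfrp1 passed (0.29, adjusted p = 0.0402), in a fit that took the spread between libraries from the mean trend alone.

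Pericyte and subepithelial markers were mixed. Of all genes tested, 19.9% were higher than in crypt cells and 34.3% lower. Of those that reached 5% in both groups, 20.1% were higher and 30% lower. Of 2 pericyte genes tested Cspg4 was higher, at 1.01 and 1.1 against 0.292 and 0.336, and the summed level of the 5 was 1.23 and 1.64 in the members and 0.485 and 0.613 in crypt cells. Of 5 subepithelial genes 3 reached 5% in both groups and none of them passed, Pdgfra among them, at 3.74 and 5.45 against 4.21 and 5.51. Foxl1 and Nrg1, the latter at 0.197 and 0.191 against 0.0141 and 0.0195, passed through the members alone. The summed level of the 6 was 4.92 and 6.84 in the members and 5.15 and 6.34 in crypt cells, most of it from Pdgfra. Within the villus cells, 3 of the 5 were at least 1.5-fold higher in the low than in the high group in both libraries, beside 13.3% of all genes. Sox6 was held at 0 by the rule. Where 1 part of the UMIs chose the groups, the other part held Sox6 at 0.225 and 0.698 in the low group. It was at 0.0101 and 0.115 in the high group and 0.0112 and 0.0669 in crypt cells. Without cells holding at least 2 subepithelial markers the difference from crypt cells was 0.30 for Wnt4 and 0.40 for Bmp5. The part of these cell types in the other differences was not tested. Of 3 mesothelial-like and Fibin markers tested 2 were lower, Pi16 at 0.0599 and 0.346 against 0.766 and 0.595 (call lost without the mean trend, adjusted p = 0.0598) and Ly6c1 at 0.268 and 0.393 against 1.1 and 1.11. Fibin itself was at 0.408 and 0.632 against 0.988 and 0.811, but its mean natural log value was 0.065 higher in the members, with both libraries positive, and did not pass (adjusted p = 0.0786). Classes marked by Inmt, Penk, Vit and Scara5 had been removed from the villus cells by the rule but not from the crypt cells. Plvap and Pecam1 of the endothelial list were at 0.116 and 0.117, and 0.0176 and 0.00327, in the members.

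The members were not alike among themselves. Adamdec1 ranged from 6.02 to 290 with a median of 122.5 in library 1, and from 0 to 471 with a median of 149 in library 2. Igfbp5 ranged from 0 to 113 and 0 to 204, with medians of 6.57 and 10.0, and 71.7% and 75.7% of members held at least 1 UMI of it. Of the members 120 and 663 held both Lpl and Fgfr2, 53 and 365 held Lpl alone and 18 and 127 Fgfr2 alone. Igfbp3 was at 3.96 and 1.81 in those with Fgfr2 alone, 8.38 and 7.58 in those with Lpl alone and 7.06 and 8.52 in those with both, while Igfbp5 was at 20.6 and 26.4, 18.9 and 14.8, and 13.2 and 20.4. The low Igfbp3 of the cells with Fgfr2 alone was thus seen in both libraries, and the order for Igfbp5 was not the same in the 2. The 3 subsets also differed in depth, with medians of 3246.5 and 4230, 4736 and 4202, and 7330.5 and 5647 UMIs in that order. Members with at least 2 smooth muscle markers had more Ptch1 (7.12 and 5.71 against 4.45 and 3.45), less Igfbp3 (4.9 and 5.64 against 8.55 and 8.55) and less Sfrp1 (17.8 and 16.4 against 24.1 and 27.8) than the others.

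The members of the 2 libraries were compared without a test. Over 1418 genes seen in at least 5% of the members of either library, 32 were at least 2-fold higher in library 1 and 98 in library 2 (9.17% together). The latter included stress genes outside the score, with Zfp36 2.38-fold and Nr4a1 2.52-fold higher, beside the higher score limit of that library. They also included Ednrb (3.39-fold), Ogn (3.09-fold) and Adgrg2 (2.92-fold).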

How the data were processed

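The authors deposited 1 table of natural log values: reads of the 10X libraries were counted with Cell Ranger 3.1.0 on mm10 (GRCm38), cells were filtered in Seurat, and each cell was scaled to its total UMIs (10000) and the natural log of 1 plus the value was taken. The Smartseq2 values, not used here, were altered by integration. The copy read here holds 3891 complete gene rows, and genes beyond them are not analysed here. UMIs were recovered from the smallest step of each cell (100% of values whole at a tolerance of 0.01). Depth per cell is given with each group. No doublet caller was run, and alternatives left out cells above the 95th percentile of UMIs or with UMIs of Ptprc, Epcam, Pecam1, Myh11 or a glial marker.

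The members, gene lists and tests were chosen with earlier results of these data known. For each library, natural log values were averaged over the cells of a group, and limma 3.58.1 (R 4.3.3) was run on these means, library as block (1 residual degree of freedom), mean trend, genes above 0 in at least 5% of cells of either group, leaving out the 24 genes of the rule, and Benjamini-Hochberg adjustment at 0.05. The library pairs the groups because the cells of both groups were captured in the same library. The deposited values are logs, so no count model was used. Genes named are the 6 markers, up to 4 called genes of largest difference per list (or the 2 of highest level where none passed), and the 8 of largest difference per direction, leaving out the stress lists and the genes of the rule. Those the text names outside this rule, in the paragraphs on the score groups, on differences among members and between libraries or as further called members of a list, were chosen after their values were seen. No immune, epithelial or glial marker reached the 5%: those of highest level included Coro1a (0.0104 and 0.0309 UMIs per 10,000) and Fcer1g (0.0681 and 0.00578), Krt19 (0 and 0.0313), Krt8 (0 and 0.0448) and S100b (0 and 0.0157). Some genes that the rule names are not reported here. Thinning used seed 7, and the split of UMIs seed 11. Coordinates are of GENCODE M21 (GRCm38). Python 3.11.15 with numpy, pandas, scipy and matplotlib was used.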

Additional observations from a re-analysis of the deposited data

How the results depend on the processing

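Counts of genes that differed between low-stress villus and crypt cells stayed within 1.5 times of 811 in all 18 alternatives, of which 3 were chosen after seeing the data (without smooth muscle or subepithelial marker cells, and with the lowest-scoring crypt cells free of Lpl and Fgfr2), from 547 to 879. Without the mean trend 180 genes were higher rather than 298, and the 367 lower stayed within that limit. That fit ended the calls of Adamtsl2, Foxl1, Fzd5, Nrg1, Pappa, Pi16 and Rspo1 among the named genes. The fit with no replicate block gave 229 higher and 454 lower, so the pairing by library moved no count by over 1.5 times, and leaving it out ended the calls of Ereg, Lamb1, Pappa, Rgs5 and Sparc. In 6 alternatives (thinned cells, a villus group cut at the lowest 25%, the lowest-scoring crypt cells and the 3 without cells bearing other markers) limma estimated an infinite prior, so that their adjusted p-values rest on the trend alone and are too small. Of 94 named genes 73 kept call and direction in every alternative in which they could be tested. None of the 91 called genes changed sign, and 2 genes that were not called did: Adgrg2, at -0.028 with crypt cells held to the exclusion lists, -0.001 at the lowest 25%, -0.011 with separate UMIs for rule and values and -0.020 to 0.061 without replicate 2 or 1, and Sfrp1, at -0.043 with the exclusion lists, -0.165 when thinned, -0.057 with separate UMIs and -0.078 to 0.231 without replicate 1 or 2. The cause was not tested. With 1 library left no count of called genes could be fitted. Between the low and the high group, 465 genes passed 1.5-fold in both libraries, 629 to 715 with 1 library left out (296 to 323 higher, 306 to 419 lower), since agreement of 2 libraries is then not asked. Depth limits genes at under about 1 UMI in most cells, where the natural log difference understates the fold.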
